A study of Mus musculus with 10 samples.

Results

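Potassium channel genes, here every gene whose symbol begins with Kcn followed by a letter, were followed in cultured mouse lung fibroblasts on Affymetrix Mouse430_2 arrays. The set held 84 of the 18193 genes measured, each read by 1 of its probe sets, the one of highest average on the 10 arrays, out of 167 Kcn probe sets. Carcinoma-associated fibroblasts (CAF), the fibroblasts of a tumour, had 5 arrays, and fibroblasts from normal lung had 5. The titles present the arrays within each group as biological replicates, and neither strain, age, sex nor tumour model is given in the sources used here. Both kinds of cells came out of mouse lungs and had the same culture: 10 to 14 days of expansion in DMEM holding 10% serum and antibiotics, then a night on 10 cm dishes. Values are expression on a log2 scale, made by the authors by robust multi-array averaging (RMA). Of the 84 genes, 26 had a mean log2 of 7 or more over the 10 arrays and are described first, and 58 lay below. Since RMA makes no detection calls, low values cannot be told from background. The members at or above 7 were selected on that mean, which uses both groups. Just inside it lay Kcnk4, Kcnmb4 and Kcna7, with means of 7.04, 7.07 and 7.08, and just outside it Kcnk3, Kcnj6 and Kcnn1, with 6.98, 6.92 and 6.91. The family was chosen by the CAF minus normal difference of Kcnk10 in earlier results of these data, so that difference is a description.

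Potassium channels let potassium leave the cell and hold the membrane voltage negative, which sets the driving force for calcium entry and takes part in cell volume, migration and division. Tandem-pore channels (Kcnk) carry a background leak, inward rectifiers (Kcnj) stabilise the resting voltage or couple it to metabolism, voltage-gated channels (such as Kcna, Kcnc, Kcnd, Kcnh and Kcnq) open on depolarisation, and Kcnma1 and Kcnn channels open with calcium. Small partner subunits (Kcnab, Kcne, Kcnip and Kcnmb) change the gating or trafficking of the pore proteins.

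Before the results, some features of the arrays bear on every value. The upper quartile over all probe sets was 9.21 to 9.29 on CAF and 9.05 to 9.12 on normal arrays, and the median was 6.73 to 6.74 on CAF and 6.76 to 6.79 on normal arrays, so the groups did not overlap in either. Among all genes with a mean under 7, the median difference between CAF and normal arrays was -0.09, with 5365 differences negative and 1454 positive. Sample codes carry a prefix of unstated meaning, ls on every CAF array and on normal replicates 4 and 5, and vs on normal replicates 1 to 3. Fibroblast markers were high in both groups, with a list mean of 11.68 to 13.30 on CAF and 12.03 to 13.70 on normal arrays and with Col1a1, Col1a2 and Vim at mean log2 values of 14.71, 15.10 and 14.77. Macrophage markers were also high, with a list mean of 10.10 to 12.43 on CAF and 9.14 to 12.49 on normal arrays, 11 of the 12 with a mean of 7 or more, and Lyz2, Tyrobp and Csf1r at 14.89, 12.69 and 12.24. In such bulk samples, fewer cells of a type and less RNA per cell cannot be told apart.

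Of the 84 potassium channel genes, 1 passed the test and was higher in CAF (Kcnk10), 0 were lower and the others did not pass, by limma with Benjamini-Hochberg adjustment over all 18193 genes at an adjusted p under 0.05. The same test called 0.753% of all genes, 0.561% higher and 0.192% lower in CAF, and 0.826% of genes with a mean of 7 or more as higher. Over all genes that is 102 higher and 35 lower, against 43 and 49 after quantile normalisation and 250 and 35 after median-centring. Since Kcnk10 entered the set through this difference, nothing is read from the count. At an unadjusted limma p under 0.05, 7 members were higher and 16 lower in CAF, against 10.5% higher and 11.8% lower over all genes. An exact Wilcoxon test with the same adjustment called 0 members (19 at an unadjusted p under 0.05). The lowest Wilcoxon adjusted p over all genes was 0.111, so that test could call no gene and its 0 says nothing about the members. An adjusted limma p of 0.1 or less was found for 10 members and for 6.39% of all genes. The median difference was -0.10 over the 84 members (22 positive and 62 negative) and -0.04 over all genes (7777 positive and 10416 negative). These sets differ in level, since 69.0% of the members and 37.5% of all genes had a mean under 7. The median difference was -0.04 over the 26 members at or above 7 and 0.04 over the 11374 genes at that level. A log2 difference of 1 or more in favour of CAF was found for 6 of the 26 members (Kcnk10, Kcnq5, Kcnmb1, Kcnj8, Kcnj15 and Kcne4) and for 2.41% of genes at that level, and 0 of the 26 had a difference of -1 or less. These are counts of differences, most of which did not pass the test. The 6 include Kcnk10, whose difference chose the family. They also include Kcnmb1, which reached a mean of 7 only through CAF (8.83 in CAF and 6.77 in normal arrays). Nothing is therefore read from the 6 beside the 2.41%.

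**Figure D1:**
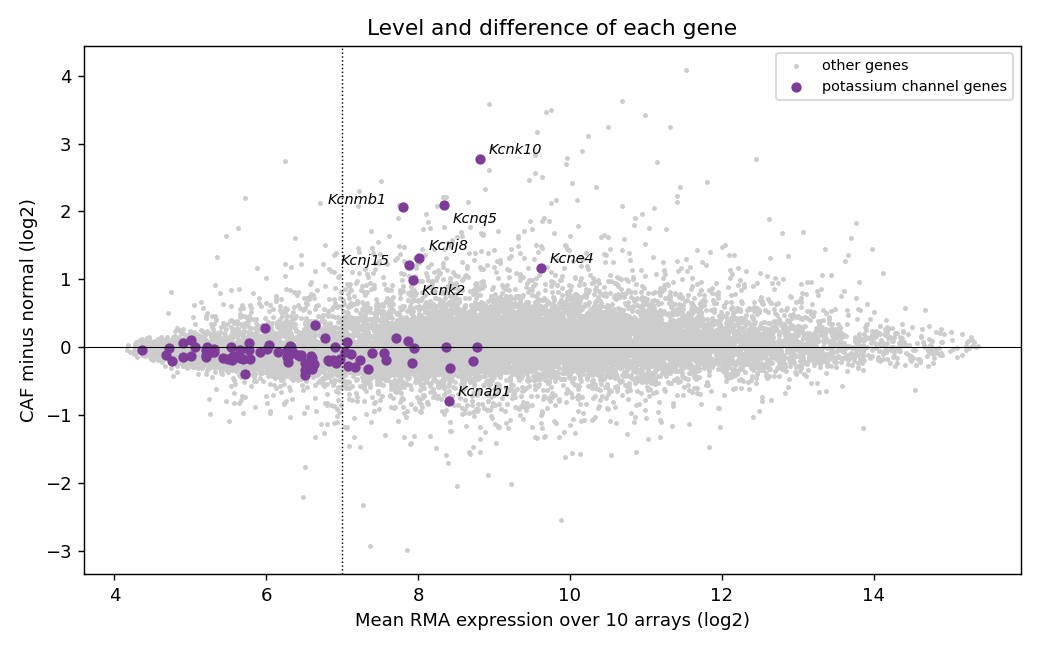
Mean log2 expression over the 10 arrays (x axis) against the CAF minus normal difference on the log2 scale (y axis) for each gene; purple points are the 84 potassium channel genes, grey points the other genes, and the dotted line marks a mean of 7. Kcnk10, Kcnq5 and Kcnmb1 lie above 2, while the 58 members left of the line lie between -0.41 and 0.33.

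For Kcnk10, Kcnq5, Kcnj8 and Kcnmb1, the members with the largest fitted difference in each of the groups tandem-pore, voltage-gated, inward rectifier and partner subunit, the 250 bases before the start of the gene are shown to give the sequence upstream of the genes that differed most. They are from RefSeq (GRCm38.p6), 5′ to 3′ in the direction of the gene, and for Kcnk10 and Kcnq5, which have more than 1 annotated start, the outermost start was taken. Capitals mark a GC box, the only motif found in them. The windows are chr12:98578214-98578463, minus strand for Kcnk10, chr1:21962651-21962900, minus strand for Kcnq5, chr6:142571615-142571864, minus strand for Kcnj8 and chr11:33962763-33963012, plus strand for Kcnmb1.
Kcnk10: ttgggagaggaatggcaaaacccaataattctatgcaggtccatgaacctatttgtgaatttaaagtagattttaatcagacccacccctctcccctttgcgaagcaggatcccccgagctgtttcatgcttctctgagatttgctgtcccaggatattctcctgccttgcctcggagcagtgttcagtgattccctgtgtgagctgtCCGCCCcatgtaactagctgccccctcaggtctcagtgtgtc
Kcnq5: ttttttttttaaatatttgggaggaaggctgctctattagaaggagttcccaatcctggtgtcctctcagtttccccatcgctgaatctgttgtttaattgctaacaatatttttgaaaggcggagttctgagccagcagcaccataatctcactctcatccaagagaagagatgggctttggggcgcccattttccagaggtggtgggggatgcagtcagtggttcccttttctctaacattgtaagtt
Kcnj8: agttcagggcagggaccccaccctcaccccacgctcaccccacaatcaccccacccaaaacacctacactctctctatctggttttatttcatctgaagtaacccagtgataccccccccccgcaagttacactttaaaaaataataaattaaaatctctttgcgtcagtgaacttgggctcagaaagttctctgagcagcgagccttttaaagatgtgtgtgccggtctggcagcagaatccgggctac
Kcnmb1: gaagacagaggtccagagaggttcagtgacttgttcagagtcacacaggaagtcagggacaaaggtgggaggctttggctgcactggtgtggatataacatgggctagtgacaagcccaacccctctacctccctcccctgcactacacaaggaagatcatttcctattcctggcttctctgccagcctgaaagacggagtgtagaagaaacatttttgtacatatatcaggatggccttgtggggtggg
Motifs searched on both strands were the AP-1 site (TGANTCA), the cyclic AMP response element (TGACGTCA), the GC box (GGGCGG), the TATA box (TATAAA) and the CArG box, the binding sequence of serum response factor. The 4 windows held 1 match in all, so no motif overlapped another there. The GC box of Kcnk10 began 42 bases before the start. Of the 26 members at or above 7, 21 had an entry, with 32 windows in all. Among these windows 13 held a GC box, 2 held an AP-1 site (in Kcnk2 and Kcnip3) and 0 held the other motifs, while the shares over all 32851 windows were 32.7% for the GC box, 6.75% for AP-1, 1.55% for the cyclic AMP response element, 12.4% for the TATA box and 1.47% for the CArG box. A match is a description of letters, not a site of binding.

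Tandem-pore channels at or above 7 were Kcnk10, Kcnk2 and Kcnk4, which form the mechanosensitive and lipid-sensitive TREK and TRAAK group, with Kcnk6 and Kcnk13. Kcnk10 was at 9.29, 9.67, 10.39, 10.66 and 11.00 in CAF replicates 1 to 5 and at 6.54, 7.49, 6.99, 9.09 and 7.03 in normal replicates 1 to 5. All CAF values lay above all normal values, and the closest were CAF replicate 1 and normal replicate 4. Kcnk10 thus averaged 10.20 ± 0.71 in CAF cultures and 7.43 ± 0.99 in normal cultures (SD, 5 arrays each), a difference of 2.77 ± 0.49 (log2 difference ± SE) or 6.83-fold. Its dimmer probe set differed by 0.78 ± 0.14. The difference was 2.14 ± 0.64 against the ls normal arrays and 3.19 ± 0.41 against the vs normal arrays, and the 2 ls normal arrays were far apart, at 9.09 and 7.03. Its call was lost when any array other than normal replicate 4 was left out, at differences of 2.55 to 3.19 with 1 array left out. Without CAF replicate 1, 3 or 5 or normal replicate 3, 0 of all genes were called. Those fits could keep no call and say nothing about Kcnk10. With the prefix as a term, where 0 of all genes were called, and against the ls normal arrays alone, it was lost too, at a difference of 2.14. Against the ls normal arrays alone 0.0055% of all genes were called and against the vs normal arrays alone 0.522%.

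Kcnk2, the closest relative of Kcnk10 in this group, was at 8.04, 8.02, 8.77, 8.51 and 8.79 in CAF replicates 1 to 5 and at 6.68, 7.81, 7.28, 7.90 and 7.52 in normal replicates 1 to 5. The groups did not overlap, and CAF replicate 2 and normal replicate 4 were the closest. The difference of 0.99 ± 0.25 did not pass (limma adjusted p = 0.0848), and it was 0.72 ± 0.26 against the ls normal arrays and 1.17 ± 0.29 against the vs normal arrays. Over all genes, the groups did not overlap for 2.97% in the direction of higher CAF values and for 4.19% in the other, against 4 and 5 of the 84 members. Kcnk4 was at 6.84 to 7.20 in CAF and 7.02 to 7.13 in normal fibroblasts, a difference of -0.07 ± 0.07 (limma adjusted p = 0.561). Kcnk6, found on endolysosomes and in macrophages, differed by 0.09 ± 0.37 (limma adjusted p = 0.909), with arrays at 7.30 to 8.82 in CAF and 6.85 to 8.56 in normal fibroblasts. Kcnk13, the halothane-inhibited channel known from microglia, differed by 0.13 ± 0.40 (limma adjusted p = 0.874), with arrays at 7.31 to 8.71 in CAF and 7.01 to 8.89 in normal fibroblasts. Of the 12 tandem-pore genes, Kcnk10 passed and 11 did not, and their median difference was -0.07.

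**Figure D2:**
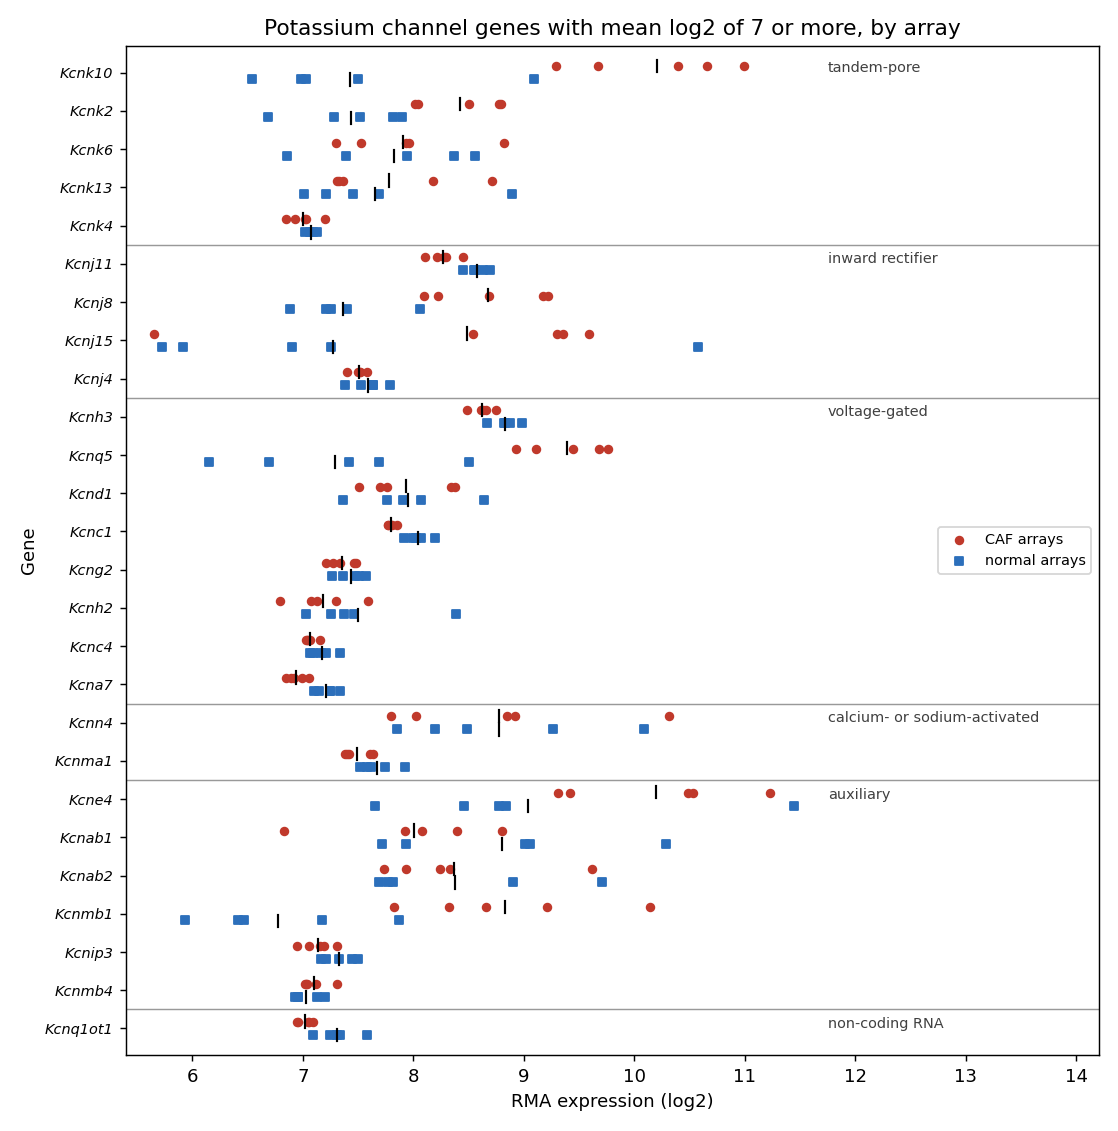
RMA expression on the log2 scale (x axis) of the 26 potassium channel genes with a mean of 7 or more, ordered by family down the page; red circles are the 5 CAF arrays, blue squares the 5 normal arrays, and black ticks the group means. Kcnk10, Kcnk2, Kcnj8 and Kcnq5 have no overlap with CAF above normal, and Kcnc1 and Kcna7 have none with CAF below normal.

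Inward rectifiers at or above 7 included both pore genes of the ATP-sensitive channel, which couples metabolism to voltage. Kcnj8, the pore of its vascular form, was at 8.23, 8.09, 9.22, 8.68 and 9.17 in CAF replicates 1 to 5 and at 7.25, 8.06, 7.40, 6.88 and 7.21 in normal replicates 1 to 5. The groups lay side by side without overlap, with CAF replicate 2 and normal replicate 2 closest. The means were 8.68 ± 0.52 in CAF cultures and 7.36 ± 0.43 in normal cultures (SD, 5 arrays each), a difference of 1.32 ± 0.28 that did not pass (limma adjusted p = 0.0589). It was 1.63 ± 0.34 against the ls normal arrays and 1.11 ± 0.32 against the vs normal arrays, and without normal replicate 2 it was 1.49 and passed (limma adjusted p = 0.0458). Kcnj8 passed in only 2 of its 20 alternatives (limma adjusted p of 0.0454 to 0.292). Kcnj11, the pore of the pancreatic and muscle form, was at 8.10, 8.28, 8.45, 8.22 and 8.30 in CAF replicates 1 to 5 and at 8.45, 8.69, 8.56, 8.54 and 8.63 in normal replicates 1 to 5. CAF replicate 3 and normal replicate 1 were both at 8.45, and the difference was -0.31 ± 0.08 (limma adjusted p = 0.0829), while its dimmer probe set differed by -0.04 ± 0.10. The sulfonylurea receptors that complete these channels did not pass either. Abcc9, the partner of Kcnj8, was at 7.21 ± 0.17 in CAF cultures and 7.21 ± 0.14 in normal cultures (limma adjusted p = 0.999). Over its 20 alternatives the Abcc9 difference ran from -0.06 to 0.45, with 0 calls and a changed sign in 7. Abcc8, the partner of Kcnj11 in the pancreatic form, had a mean of 6.31 and a difference of -0.15 ± 0.08 (limma adjusted p = 0.329).

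Kcnj15 and Kcnj4 complete the inward rectifiers at that level. Kcnj15, known from kidney and from electric-field sensing by cells, varied widely within both groups, at 5.65 to 9.59 in CAF and 5.72 to 10.58 in normal fibroblasts, and CAF replicate 2 was low and normal replicate 2 high. Its difference of 1.21 ± 1.03 was close to its error (limma adjusted p = 0.511), and its dimmer probe sets differed by 0.98 ± 0.60 and -0.24 ± 0.07. Kcnj4, a strong inward rectifier of brain and heart, differed by -0.09 ± 0.08 (limma adjusted p = 0.538), at 7.40 to 7.58 in CAF and 7.38 to 7.79 in normal fibroblasts. All 15 inward rectifiers measured missed the threshold, with a median difference of -0.09.

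Among voltage-gated channels, Kcnq5, which carries the slow M-type current in neurons and smooth muscle, had the largest difference. Kcnq5 was at 8.93, 9.45, 9.11, 9.76 and 9.68 in CAF replicates 1 to 5 and at 6.69, 6.15, 7.69, 8.51 and 7.41 in normal replicates 1 to 5. All CAF arrays were above all normal arrays, and normal replicate 4 was again the closest. The means were 9.39 ± 0.36 in CAF cultures and 7.29 ± 0.91 in normal cultures (SD, 5 arrays each), a difference of 2.10 ± 0.40 or 4.27-fold that did not pass (limma adjusted p = 0.0515). Its next probe set differed by 1.54 ± 0.26, and the dimmest by -0.07 ± 0.10. Tested probe set by probe set over the whole array, the used probe set and the next had limma adjusted p-values of 0.0453 and 0.0388. Kcnq5 also passed after median-centring, with the mean of its probe sets, against the vs normal arrays alone and without normal replicate 4, which is 5 of its 20 alternatives. Median-centring called 1.57% of all genes and 3 members, Kcnk10, Kcnq5 and Kcnj8. The difference was 1.43 ± 0.34 against the ls normal arrays and 2.54 ± 0.35 against the vs normal arrays.

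**Figure D3:**
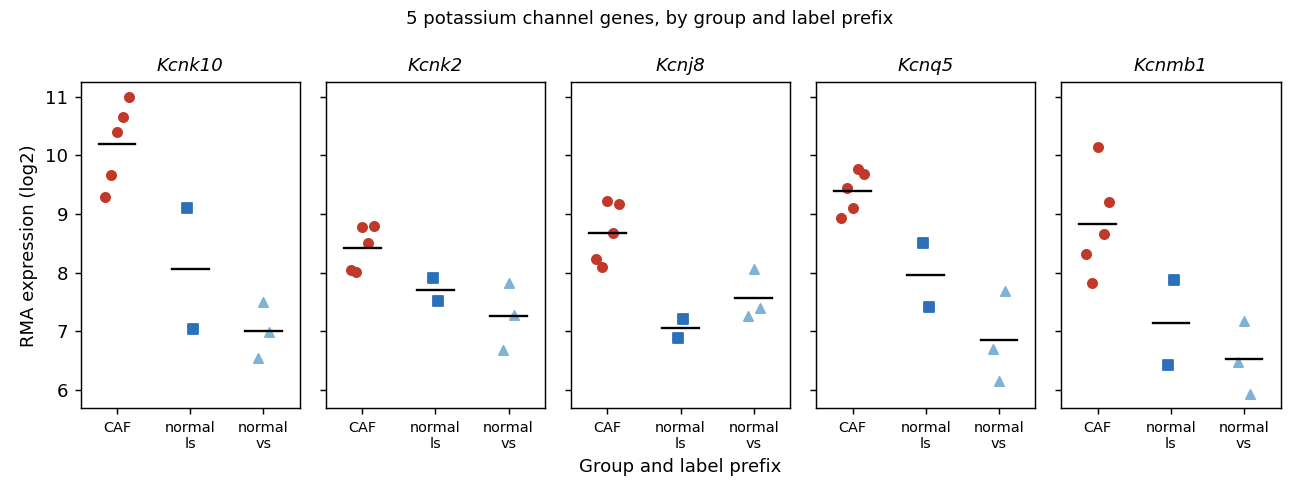
RMA expression on the log2 scale (y axis) of Kcnk10, Kcnk2, Kcnj8, Kcnq5 and Kcnmb1 in CAF arrays, in normal arrays with label prefix ls and in normal arrays with label prefix vs (x axis); points are arrays and bars group means. The CAF mean is the highest in each panel, and for Kcnk10 the ls normal arrays lie at 9.09 and 7.03.

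The other voltage-gated members at or above 7 all had negative differences, none of which passed. Kcnc1, a fast-activating channel of rapidly firing neurons, was at 7.77, 7.85, 7.81, 7.80 and 7.77 in CAF replicates 1 to 5 and at 7.91, 8.07, 7.99, 8.02 and 8.19 in normal replicates 1 to 5. CAF lay below normal without overlap, by a difference of -0.24 ± 0.06 (limma adjusted p = 0.086). Kcna7, a channel of the Shaker family, was at 6.85, 7.05, 6.92, 6.99 and 6.89 in CAF replicates 1 to 5 and at 7.24, 7.33, 7.10, 7.15 and 7.24 in normal replicates 1 to 5. It too had no overlap, with a difference of -0.27 ± 0.07 (limma adjusted p = 0.074). Kcna7 reached a mean of 7 only through the normal arrays (6.94 in CAF and 7.21 in normal arrays), so its place among the negative members at that level is a description. Kcnh3, an ether-a-go-go-like channel of forebrain, was at 8.63, 8.61, 8.48, 8.66 and 8.75 in CAF replicates 1 to 5 and at 8.98, 8.82, 8.66, 8.87 and 8.83 in normal replicates 1 to 5. The ranges overlapped, and its difference of -0.21 ± 0.07 did not pass (limma adjusted p = 0.150), while its 3 other probe sets gave -0.40 to -0.23. Kcnd1, an A-type channel, had -0.01 ± 0.25, Kcnc4, a fast-inactivating relative of Kcnc1, -0.10 ± 0.07, and Kcng2, a silent modifier subunit, -0.08 ± 0.08. Kcnh2, the channel of cardiac repolarisation, had -0.32 ± 0.25, with normal replicate 3 alone above 8. The limma adjusted p of these 4 lay between 0.369 and 0.981. Of the 8 voltage-gated genes at or above 7, Kcnq5 alone had a positive difference, and the 31 of the family had a median of -0.11 with 6 positive.

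Of the large-conductance calcium-activated channel, the pore gene had a negative and the smooth muscle subunit a positive difference, and neither passed. Kcnma1, the pore of the large-conductance channel, was at 7.38, 7.60, 7.64, 7.41 and 7.40 in CAF replicates 1 to 5 and at 7.74, 7.92, 7.61, 7.58 and 7.52 in normal replicates 1 to 5. Its ranges overlapped, with a difference of -0.19 ± 0.09 (limma adjusted p = 0.266) and, from 4 other probe sets with means of 4.28 to 5.11, values of -0.17 to 0.02. Kcnmb1, the subunit that raises the calcium sensitivity of this channel in smooth muscle, was at 8.32, 7.83, 10.15, 8.66 and 9.21 in CAF replicates 1 to 5 and at 6.47, 7.18, 5.93, 6.42 and 7.87 in normal replicates 1 to 5. CAF replicate 3 was the highest, and CAF replicate 2 and normal replicate 5 were the only arrays in which the groups crossed. Kcnmb1 averaged 8.83 ± 0.89 in CAF cultures and 6.77 ± 0.76 in normal cultures (SD, 5 arrays each), a difference of 2.06 ± 0.48 or 4.17-fold that did not pass (limma adjusted p = 0.0684), nor did it in any of its 20 alternatives (limma adjusted p of 0.0592 to 0.323). Its dimmer probe set differed by 0.64 ± 0.25. The difference was 1.69 ± 0.65 against the ls normal arrays and 2.31 ± 0.52 against the vs normal arrays. Kcnmb4, the neuronal relative of Kcnmb1, had 0.07 ± 0.08 (limma adjusted p = 0.642).

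Kcne4, a small membrane-spanning subunit that dampens several voltage-gated channels, was at 9.31 to 11.23 in CAF and 7.65 to 11.44 in normal fibroblasts. The highest of its 10 values was normal replicate 2, which lay above every CAF array, while the other normal arrays lay below every CAF array. Its difference of 1.16 ± 0.67 did not pass (limma adjusted p = 0.329), and it was 1.76 without normal replicate 2 (limma adjusted p = 0.0705). That was the largest in its 20 alternatives, which ran from 0.82 to 1.76 with 0 calls (limma adjusted p of 0.0705 to 0.601). Kcnab1, a cytosolic subunit of Shaker channels related to aldo-keto reductases, was at 6.83 to 8.81 in CAF and 7.72 to 10.29 in normal fibroblasts, a difference of -0.79 ± 0.52 (limma adjusted p = 0.384), with -1.11 relative to ls and -0.59 relative to vs normal arrays. Kcnip3, a calcium sensor that binds A-type channels and DNA, was at 7.06, 7.19, 7.31, 7.16 and 6.94 in CAF replicates 1 to 5 and at 7.49, 7.45, 7.16, 7.21 and 7.33 in normal replicates 1 to 5. The groups overlapped, with a difference of -0.20 ± 0.09 (limma adjusted p = 0.243). Kcnq1ot1 is a non-coding RNA transcribed from within Kcnq1 in an imprinted domain, and not a channel. It was at 7.09, 6.95, 6.94, 7.06 and 7.05 in CAF replicates 1 to 5 and at 7.25, 7.34, 7.58, 7.31 and 7.09 in normal replicates 1 to 5. CAF replicate 1 and normal replicate 5 were at the same level, and the difference was -0.29 ± 0.09 (limma adjusted p = 0.108).

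Markers of other cell types were read on the same arrays. Of the 10 pericyte and smooth muscle markers 0 passed, with a list mean of 10.39 to 10.77 on CAF and 10.01 to 10.83 on normal arrays. Their median difference was 0.12 with 7 positive, and the brightest, the contractile genes Acta2, Tagln and Cnn1, differed by 0.10 ± 0.10, 0.08 ± 0.08 and 0.14 ± 0.16. Myh11, another contractile gene, had the largest difference of the list, 1.12 ± 0.41 (limma adjusted p = 0.152). The pericyte markers Rgs5, Notch3 and Higd1b had means below 7 and differences of 0.90 ± 0.65, -0.25 ± 0.29 and -0.05 ± 0.11, and Mcam had -0.66 ± 0.54. The list mean of the 9 Schwann and neural markers measured was 6.92 to 7.48 on CAF and 6.67 to 6.91 on normal arrays, without overlap, but the median difference of the list was -0.09 with 4 of 9 positive. Of these markers, 5 had a mean under 7 and 0 passed. The 4 positive ones were Snap25 at 2.20 ± 0.72, S100b at 1.37 ± 0.26 (limma adjusted p = 0.0518), Tubb3 at 0.72 ± 0.34 and Nefm at 0.40 ± 0.13, while Sox10, which defines Schwann cells, had -0.10 ± 0.08 and Ncam1 -0.14 ± 0.31. Skeletal muscle markers had list means of 6.49 to 6.97 on CAF and 6.30 to 6.82 on normal arrays, with 5 of 7 under 7, 0 called, 3 positive and a median difference of -0.13. Acta1 differed by 1.75 ± 0.69, Ckm by -0.36 ± 0.09 with CAF below normal without overlap (limma adjusted p = 0.0742), Myog by -0.21 ± 0.07 and Myod1 by -0.13 ± 0.08. Lists with means near or below 7 were those of endothelium (6.64 to 6.98 on CAF and 6.72 to 6.94 on normal arrays, with Eng, Esam and Kdr the brightest), epithelium (6.45 to 7.34 on CAF and 6.70 to 7.59 on normal arrays, with Krt18, Krt8 and Epcam) and lymphocytes (5.83 to 6.01 on CAF and 5.93 to 6.06 on normal arrays, with Cd3e, Cd79a and Nkg7). Mesothelial markers ranged from 7.06 to 9.57 on CAF and from 6.01 to 10.76 on normal arrays, with Upk1b, Upk3b and Wt1 the brightest, and normal replicate 2 was lowest. Of the 6 mesothelial markers 0 were positive and 0 passed, with a median difference of -0.34. Lrrn4 had the largest of these differences, -2.99 ± 1.15 (limma adjusted p = 0.170). The part of these cell types in the differences of Kcnk10, Kcnq5, Kcnj8 and Kcnmb1 was not tested.

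Some members were high on the arrays that were high for macrophage markers, in both groups. Of the 12 macrophage markers 11 had a positive difference and 0 passed, with a median difference of 0.47. The macrophage list mean was 12.43, 10.88, 10.10, 11.03 and 11.83 in CAF replicates 1 to 5 and 12.49, 9.14, 11.89, 10.86 and 9.81 in normal replicates 1 to 5, so that CAF replicate 1 and normal replicates 1 and 3 were the highest. The same 3 arrays were the highest for Kcnn4, Kcnab2 and Kcnk6, which is 3 of the 26 members and a comparison chosen after the values were seen. The share of all genes highest on these 3 arrays was not counted, so nothing is read from the 3 of 26. Kcnn4, the intermediate-conductance calcium-activated channel of lymphocytes, macrophages and dividing fibroblasts, was at 10.31, 8.92, 7.79, 8.03 and 8.84 in CAF replicates 1 to 5 and at 10.08, 7.85, 9.26, 8.49 and 8.19 in normal replicates 1 to 5. Its levels overlapped throughout, with a difference of 0.0039 ± 0.54 (limma adjusted p = 0.998). Kcnab2, a cytosolic subunit of Shaker channels, was at 9.62, 7.93, 7.73, 8.25 and 8.33 in CAF replicates 1 to 5 and at 9.71, 7.77, 8.90, 7.81 and 7.69 in normal replicates 1 to 5. Its difference was -0.0033 ± 0.47 (limma adjusted p = 0.998). Kcnk13 was highest on normal replicate 1 and CAF replicates 1 and 5. The part of macrophage RNA in these levels was not tested.

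**Figure D4:**
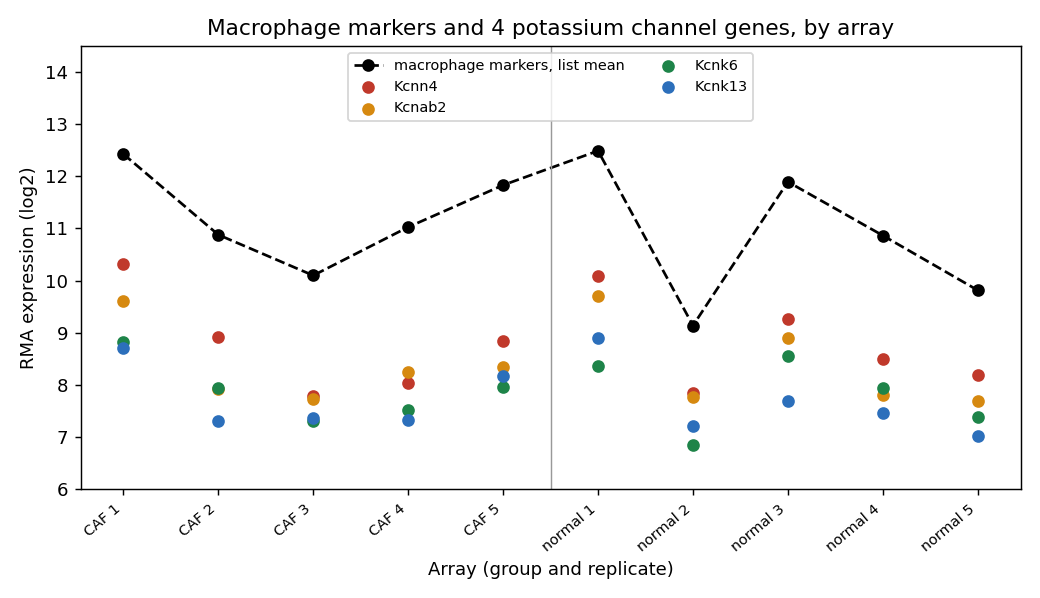
Mean log2 expression of the 12 macrophage markers (black, joined) and RMA expression of Kcnn4, Kcnab2, Kcnk6 and Kcnk13 (coloured points) on the log2 scale (y axis), by array (x axis), with CAF left and normal right of the grey line. CAF replicate 1 and normal replicates 1 and 3 are the highest for the markers, Kcnn4, Kcnab2 and Kcnk6; levels of different genes are not comparable with each other.

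The differences of the 58 members under 7 ran from -0.41 to 0.33, 47 were negative and 11 positive, and their median was -0.12, beside -0.09 over all genes under 7. The smallest limma adjusted p among them was 0.0668, that of Kcna2. Kcna2, a Shaker channel of axons, was at 6.46 to 6.57 in CAF and 6.69 to 6.83 in normal fibroblasts. Kcna1, its partner there, was at 6.30 to 6.62 in CAF and 6.69 to 6.89 in normal fibroblasts. Neither had any overlap, with differences of -0.24 ± 0.05 for Kcna2 and -0.33 ± 0.09 for Kcna1 (limma adjusted p = 0.086), but of their 6 dimmer probe sets 4 had positive differences. Kcne1, the partner of Kcnq1 in heart and inner ear, also had no overlap, at 6.09 to 6.26 in CAF and 6.29 to 6.61 in normal fibroblasts. Its difference was -0.23 ± 0.07 (limma adjusted p = 0.122). Kcnk7, a tandem-pore protein not known to carry current alone, had -0.33 ± 0.10 (limma adjusted p = 0.110), and Kcns3, a silent modifier subunit, -0.19 ± 0.07 (limma adjusted p = 0.134). Kcna3, the Shaker channel of lymphocytes and macrophages, had a positive difference of 0.28 ± 0.10 (limma adjusted p = 0.150), and its highest array was CAF replicate 1. The non-overlapping members under 7 were 0 above and 3 below normal, or 5.17%, beside 6.31% of all genes under 7 that lay below.

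Other genes that set or use the potassium gradient were counted by list, again against 0.753% of all genes called. The lists were chosen with earlier results of these data known, so nothing is read from the counts beside that share. Chloride and volume-regulated channels had 16 members measured, of which 2 rose, 0 fell and 14 did not pass, with a median difference of 0.19. Lrrc8d, a subunit of the volume-regulated anion channel that releases chloride and osmolytes when cells swell, was at 11.64, 11.74, 11.60, 11.02 and 11.55 in CAF replicates 1 to 5 and at 9.72, 9.29, 9.87, 10.38 and 10.33 in normal replicates 1 to 5. The groups stood well apart, and Lrrc8d rose 3.02-fold (1.59 ± 0.22, limma adjusted p = 0.0271). It kept its call in 11 of 20 alternatives. Clcn4, an endosomal chloride-proton exchanger, rose by 0.70 ± 0.12 (limma adjusted p = 0.0483), with a call in 4 of 20 alternatives. Clcn5, its kidney relative, had 0.03 ± 0.12 and Ano6, a calcium-activated scramblase and channel, 0.17 ± 0.16.

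Calcium entry and mechanosensitive channels, whose driving force potassium channels set, had 28 members measured, of which 2 rose, 0 fell and 26 did not pass, with a median of 0.10. Orai1, the pore of store-operated calcium entry, was at 9.68, 9.55, 10.06, 9.77 and 9.89 in CAF replicates 1 to 5 and at 9.23, 9.29, 9.31, 9.17 and 9.00 in normal replicates 1 to 5. Its ranges did not overlap, and it rose 1.50-fold (0.59 ± 0.10, limma adjusted p = 0.0483). Trpm4, a calcium-activated channel for monovalent cations, rose by 0.36 ± 0.06 (limma adjusted p = 0.0483), and Orai1 and Trpm4 each kept the call in 4 of 20 alternatives. Piezo1, the stretch-gated channel, had 0.13 ± 0.21, and Trpm7, a magnesium-permeable channel kinase, 0.10 ± 0.11.

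In the remaining lists 0 members passed in either direction. The 7 cation-chloride cotransporters measured had a median of 0.29, with Slc12a2, which loads cells with potassium and chloride, at 0.88 ± 0.21 (limma adjusted p = 0.0724), Slc12a4 at 0.29 ± 0.13 and Slc12a3 at -0.15 ± 0.06. The 11 sodium-potassium pump subunits measured had a median of -0.04. Atp1b2, a beta subunit, had -0.50 ± 0.14 (limma adjusted p = 0.0909), Atp1b3, another, 0.22 ± 0.13, and the pump regulators Fxyd3 and Fxyd5 -0.38 ± 0.13 and 0.69 ± 0.32. The 8 proteins that bind or traffic TREK-type channels had a median of -0.05, with Popdc2 at 0.51 ± 0.25, Copb1 at 0.12 ± 0.06 and Sort1 at 0.27 ± 0.37, the 3 that were positive. The others were negative, with Akap5 the farthest at -1.18 ± 0.82 (limma adjusted p = 0.418). The 8 partner subunits outside the Kcn symbols had a median of -0.15, with Lrrc26 at -0.17 ± 0.08, Dpp10 at -0.15 ± 0.08 and Amigo1 at -0.11 ± 0.07. The 12 sodium, leak and HCN channels had a median of -0.03, with Hcn3 at -0.37 ± 0.11 (limma adjusted p = 0.105), Scn7a at -0.16 ± 0.06 and Scn3b at 0.54 ± 0.76.

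**Figure D5:**
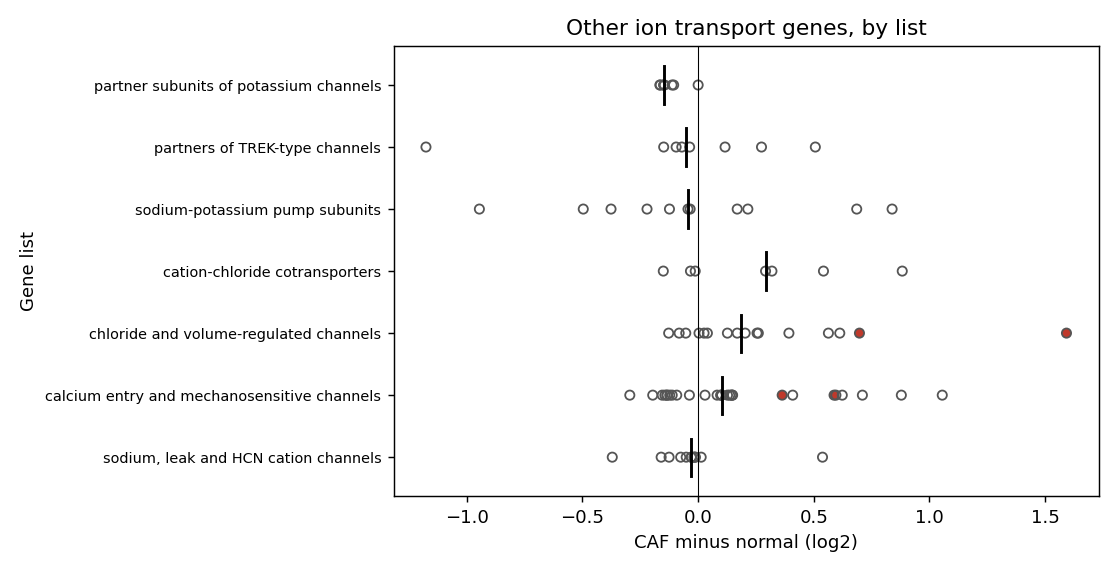
CAF minus normal difference on the log2 scale (x axis) of each measured gene in 7 lists of other ion transport genes (y axis); each circle is a gene, filled red where limma's adjusted p is under 0.05, and black bars are list medians. Lrrc8d and Clcn4 among chloride channels and Orai1 and Trpm4 among calcium channels are filled.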

How the data were processed

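Biotin-labelled cRNA from 6 ug of total RNA of each culture was hybridised to the arrays, per the labels' protocols. The authors deposited log2 values for every array. These come from RMA in Affymetrix Expression Console and limma is also listed, per the submitters' processing notes, without versions. After RMA a difference is relative to the rest of the array.

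From 45101 probe sets, 64 controls were left out, and 34945 had 1 gene symbol, updated through Entrez numbers to GRCm38.p6 names. No low values were filtered. The test was limma 3.58.1 under R 4.3.3 (lmFit, eBayes), CAF minus normal, with group as the only term; every adjusted p is from that fit unless another is named. The 5 arrays per group limit the precision. Where the labels do not show separate animals, p-values measure only the spread between these samples.

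Members, gene lists and tests were chosen with earlier results of these data known. Named were Kcnk10, all members at or above 7, the 6 of smallest p below 7, those nearest to 7, per pathway list the called genes, the 2 of smallest p and the 2 brightest, and per marker list the 3 brightest. Abcc8, Akap5, Snap25, Nefm, Mcam, Myh11, Lrrn4, Sox10, Rgs5, Notch3, Higd1b and Myod1 were named after their values were seen. The labels state no pairing, and the fit used none. Same-numbered arrays of the groups had deviations correlated from -0.53 to 0.34, which cannot exclude a pairing. Alternatives were other scalings, probe set rules, filters, priors, the label prefix, a replicate block and leaving out each array.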

Additional observations from a re-analysis of the deposited data

Results flagged for a closer look

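Each list mean, and each named gene other than Myh11 and Lrrn4, was examined within each group of 5 arrays for a value far from the other 4, with Dixon's test. Of 226 groups, 10 had such a value, where chance gives about 1 in 20. Kcnj15 was low in CAF replicate 2, at 5.65, with the next CAF array at 8.54. Kcna3 was high in CAF replicate 1, at 6.45, with the next at 6.10. Lrrc8d was low in CAF replicate 4, at 11.02, with the next at 11.55, and Ano6 was low in CAF replicate 3, at 11.49, with the next at 11.83. Notch3 was high in CAF replicate 4, at 7.18, with the next at 6.48. Esam was high in CAF replicate 2, at 11.47, with the next at 8.34. Among normal arrays, replicate 2 was high for Rgs5, at 8.08, with the next at 6.11, and low for Wt1, at 5.95, with the next at 10.21. Amigo1 was high in normal replicate 2, at 7.42, with the next normal array at 7.26. The mean of the endothelial markers was high in CAF replicate 2, at 6.98, with the next at 6.72.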

How the results depend on the processing

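The direction of 21 of the 26 members at or above 7 was the same in all 20 alternatives. The others were Kcnn4, Kcnab2, Kcnd1, Kcnk6 and Kcnk13. Not all alternatives could change a direction. The filter at 7, eBayes with trend and robust and the replicate block leave every difference as it was. The prefix term gives the same difference as the ls normal arrays alone. For a gene with a single probe set, the probe set rules change no difference. The number of Kcn genes called was 0 after quantile normalisation, with testing of genes at or above 7 alone, with eBayes with trend and robust, with the label prefix as a term, against the ls normal arrays and by the exact Wilcoxon test, where 15 to 26 or, among genes at or above 7, 10 members had an unadjusted p under 0.05. It was 2 with the mean of the gene's probe sets, with each probe set singly and against the vs normal arrays, 3 after median-centring, and 0 to 2 with 1 array left out. Over all genes the count was 137, with 102 higher and 35 lower in CAF, against 43 and 49 after quantile normalisation. It was 285 after median-centring, 258 with each probe set singly, 41 for genes at or above 7, 46 with trend and robust, 0 with the prefix term, 1 against the ls normal arrays, 0 by the exact Wilcoxon test (3190 genes at an unadjusted p under 0.05) and 0 to 166 with 1 array left out. The lowest Wilcoxon adjusted p over all genes was 0.111, so that test could call no gene. In every other setting with 0 genes called over all genes, no named gene could keep a call either. The replicate block called 0 Kcn genes and 0 genes in all (3017 at an unadjusted p under 0.05), and CAF replicate 1 alone correlated best with its own number. The median of the Kcn genes was -0.0549 after median-centring and -0.1241 to -0.0872 with 1 array left out. The median of those at or above 7 was -0.0994 after quantile normalisation, 0.0191 with the prefix term and against the ls normal arrays, -0.1218 against the vs normal arrays and -0.1153 to -0.0109 with 1 array left out. The causes were not tested. The median over all genes, -0.04 in the main fit, moved by 0.0083 under quantile normalisation and by 0.0418 under median-centring. The latter shift is as large as that median. After median-centring the median of the members at or above 7 was -0.0014, beside -0.0433 in the main fit. RMA values carry no detection call, which limits what the members under 7 can show.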
